A study of Mus musculus with 6 samples.

Results

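The genes described here encode the receptor chains, kinases, transcription factor and feedback inhibitors of interleukin-6 family signalling in satellite cells, which are the resident stem cells of skeletal muscle. They were taken by name as 3 receptor genes (Il6st, Osmr and Lifr), 2 kinase genes (Jak1 and Jak2), Stat3, and 4 feedback genes (Socs1, Socs2, Socs3 and Cish). All 10 were found among the 27179 Entrez gene IDs of the count files, each under 1 ID, and all 10 were among the 13202 genes that passed the filter on low counts. The cells were sorted by flow cytometry from muscle of WT mice of the C57Bl/6N background, fed either a high-fat diet (HFD, 3 libraries) or a chow diet (3 libraries), at least 50000 cells per replicate. The labels give no age, sex, length of feeding or sort markers, and do not say whether the libraries came from separate animals, so the p-values measure only the spread between these libraries.

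Cytokines of this family, among them interleukin-6, leukaemia inhibitory factor (LIF) and oncostatin M, assemble a receptor around the shared signalling chain gp130. Kinases of the JAK family bound to the receptor then phosphorylate gp130 and the transcription factor STAT3, which moves to the nucleus. Among its direct targets are genes of the SOCS family, whose proteins bind the receptor or the kinase and shut the signal off. In muscle, interleukin-6 and LIF are known to act on myoblast proliferation, oncostatin M on satellite cell quiescence, and STAT3 on satellite cell expansion and differentiation.

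Total gene counts ran from 14930394 to 18217818 per library, and a count of 3 corresponded to between 0.162 and 0.195 CPM (reads of a gene scaled to a common library size with TMM factors). HFD library 1 and chow library 3 stood apart from the other 4 on the leading principal component (500 genes of highest variance), at -43.1 and 60.8, against -12.3 to 6.64. The 8 satellite cell markers were all detected, with a summed level of 3858 to 4817 CPM in the HFD libraries and 3958 to 4740 CPM in the chow libraries, and 0 of the 8 passed the test described below. Their values did not all lie the same way. Pax7, the defining transcription factor, averaged 234 ± 57.3 CPM with HFD and 402 ± 29.8 CPM with chow, with every HFD library below the chow libraries (edgeR adjusted p = 0.180). Itga7 averaged 369 ± 42.3 CPM with HFD and 245 ± 45.5 CPM with chow, and Chrdl2 averaged 436 ± 75.8 CPM with HFD and 296 ± 44.1 CPM with chow, with every HFD library above the chow libraries for both (edgeR adjusted p = 0.328 for Itga7 and 0.373 for Chrdl2). The part of these markers in the Socs3 and Osmr differences was not tested. Of the 9 leukocyte markers, Adgre1, Cd3e and Cd52 had no count in any library, Ptprc and Itgam lay at or below 0.576 CPM, and Cd79a and Csf1r at or below 7.72 CPM. Cd68 averaged 11.4 CPM with HFD and 22.6 CPM with chow, and Lyz2 had 0 to 2.75 CPM with HFD and 1.57 to 17.5 CPM with chow, with overlapping diets for both (edgeR adjusted p = 0.794 each). The 8 endothelial markers summed to 233 to 389 CPM with HFD and 269 to 338 CPM with chow, and 0 passed. Among them Kdr alone separated by diet, at 23.8 to 39.3 CPM with HFD and 7.29 to 13.7 CPM with chow (edgeR adjusted p = 0.442). The 7 mural and Schwann markers summed to 35.6 to 92.0 CPM with HFD and 74.1 to 161 CPM with chow. All 7 log2 fold changes were negative, and 0 passed. The part of these markers in the diet differences was not tested.

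The start sites of the feedback genes are shown first because Socs genes are known direct targets of STAT factors. The motif searched was TTCNNNGAA, to which STAT dimers bind and which reads the same on either strand; overlapping matches were counted. It was sought in the RefSeq promoter windows of GRCm38.p6, each holding 250 bases before a transcript start and 50 after it. Of the 10 genes, 9 had at least 1 window, and Socs2 had none in the table. Among the 10 windows of these 9 genes, 2 held the motif. It occurred in 8.3% of all 32851 windows and in 6.7% of the 12471 windows of genes tested. The lines below give the 250 bases before the start for Socs3 and Socs1, and 50 bases around the start for Cish, with matches to the motif in capitals.
Socs3 (chr11:117969367-117969616, minus strand): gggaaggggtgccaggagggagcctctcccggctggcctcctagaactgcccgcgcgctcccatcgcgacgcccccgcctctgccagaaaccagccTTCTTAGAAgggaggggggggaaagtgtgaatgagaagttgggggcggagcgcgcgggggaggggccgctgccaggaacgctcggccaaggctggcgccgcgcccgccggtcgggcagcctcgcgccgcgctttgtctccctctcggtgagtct
Cish (chr9:107296629-107296678, plus strand): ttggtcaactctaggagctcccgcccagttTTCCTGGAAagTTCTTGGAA
Socs1 (chr16:10785537-10785786, minus strand): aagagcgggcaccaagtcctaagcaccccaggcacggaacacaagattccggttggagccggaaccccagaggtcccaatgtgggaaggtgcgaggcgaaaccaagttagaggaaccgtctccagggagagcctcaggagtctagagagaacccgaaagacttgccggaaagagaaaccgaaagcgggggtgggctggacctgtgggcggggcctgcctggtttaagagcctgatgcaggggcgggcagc
Socs3 had 1 match, beginning 154 bases before the transcript start of its window. Cish had 2 matches, beginning at the first and the 12th transcribed base. The windows of Socs1, Stat3, Jak1, Jak2, Il6st, Osmr and Lifr had no match. For Socs3, Osmr and Lifr the windows lie inside the annotated span of the gene. The bases before the outermost start of these genes were therefore not searched. These are matches of letters in a short window and do not show that a factor was bound.

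The series sets satellite cells of mice fed HFD against those of mice fed chow. Across the 10 genes, Socs3 and Osmr were the 2 whose libraries separated by diet, Socs3 lower and Osmr higher with HFD. The test was edgeR's quasi-likelihood F test, with p-values adjusted after Benjamini and Hochberg over all genes tested and a threshold of 0.05. Of the 10 genes 0 passed, beside 34 of 13202 genes overall (0.258%), of which 12 were higher (0.0909%) and 22 lower (0.167%). With DESeq2 1 of the 10 passed (beside 198 of 13112 genes, 1.51%) and with limma-voom 1 (beside 99 of 13202 genes, 0.75%), Socs3 each time. An unadjusted p under 0.05 was reached by 2 of the 10, Socs3 and Osmr, and by 1010 of all genes tested (7.65%). The diets did not overlap for the same 2 genes, beside 2018 of all genes tested (15.3%). All HFD libraries were above all chow libraries for 7.42% and below them for 7.87%, with 1 of the 10 in each direction. A count of 2 in 10 is near the share over all genes, so it does not set these genes apart. A negative log2 fold change was found for 5 of the 10 and for 50.5% of all genes tested. The median log2 fold change of the 10 genes, HFD over chow, was 0.01, and that of all genes tested was -0.01.

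**Figure D1:**
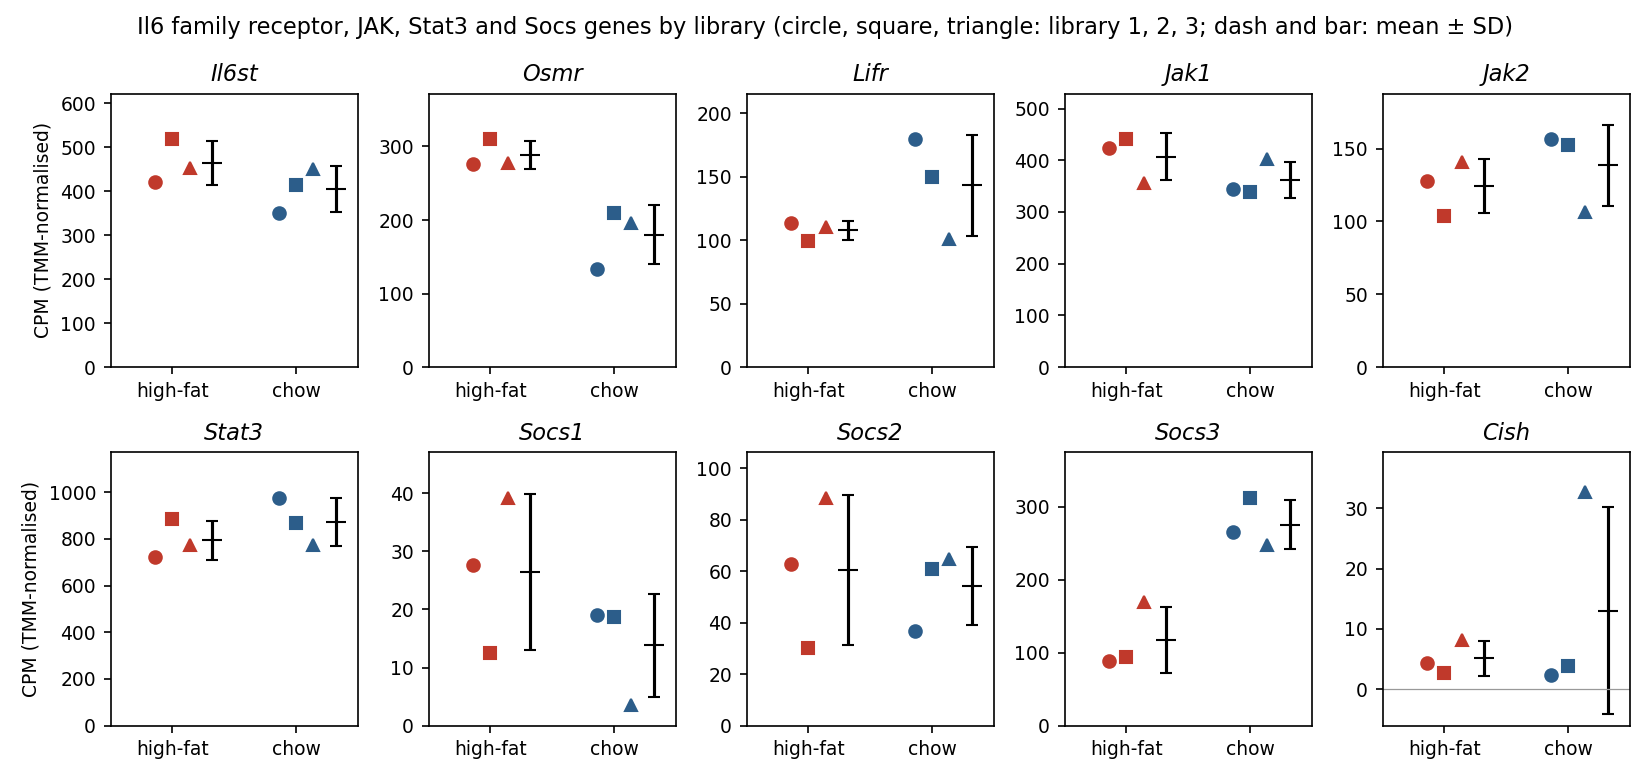
TMM-normalised CPM of the 10 genes in each library, HFD in red and chow in blue, with each axis scaled to its gene; symbols mark libraries 1, 2 and 3, and the dash and bar give the mean and SD (n = 3 each). All 3 HFD libraries lie above the chow libraries for Osmr and below them for Socs3, and the diets overlap for the other 8 genes.

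Of the receptor chains, Il6st encodes gp130, the chain that the family's receptors share, and lies at chr13:112464070-112506860 in GRCm38.p6, the build of all gene positions here. Il6st had 422, 519 and 453 CPM in HFD libraries 1, 2 and 3, and 350, 414 and 452 CPM in chow libraries 1, 2 and 3. HFD library 1 lay below chow library 3, so the diets overlapped. Its log2 fold change was 0.20 (SE 0.17, adjusted p = 0.930 in edgeR), with a 95% interval from -0.16 to 0.55.

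Osmr encodes the chain that joins gp130 to form the oncostatin M receptor (chr15:6813568-6874968). Osmr had 277, 310 and 277 CPM in HFD libraries 1, 2 and 3, against 134, 209 and 196 CPM in chow libraries 1, 2 and 3. The HFD libraries lay close together and above every chow library, of which library 1 was the lowest. The means were 288 ± 19.2 CPM with HFD and 180 ± 40.1 CPM with chow (SD, n = 3 each), a 1.60-fold difference. The log2 fold change was 0.68 (SE 0.20, 95% interval 0.26 to 1.10), with an unadjusted p of 0.00398 and an adjusted p of 0.286 in edgeR. Osmr therefore did not pass the test over all genes, and it passed under none of the 19 other settings tried, where the adjusted p ran from 0.0714 to 0.643. Its log2 fold change was positive in all 19 (0.51 to 0.80). The summed level of the 8 fibroblast and fibro-adipogenic markers ran from 636 to 820 CPM with HFD and from 495 to 668 CPM with chow, with 0 of the 7 tested passing, 6 of the 7 positive and none at 0 in all libraries. The most abundant were Dpt (340 ± 38.5 CPM with HFD and 247 ± 78.7 CPM with chow), Col15a1 (194 ± 8.10 CPM with HFD and 176 ± 10.1 CPM with chow, the diets not overlapping) and Dcn (138 ± 46.8 CPM with HFD and 113 ± 8.32 CPM with chow). Pdgfra, the negative one, lay at or below 8.28 CPM in every library. The part of these markers in the Osmr difference was not tested. In bulk RNA a change in the number of cells of a type and a change in RNA per cell cannot be told apart.

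Lifr encodes the chain that pairs with gp130 to bind LIF and is also used by ciliary neurotrophic factor and cardiotrophin (chr15:7090610-7197489). Lifr had 114, 98.9 and 110 CPM in HFD libraries 1, 2 and 3, and 180, 149 and 101 CPM in chow libraries 1, 2 and 3. Chow library 3 lay among the HFD libraries, while chow libraries 1 and 2 lay above them. On the log2 scale Lifr differed by -0.41 (SE 0.23; 95% interval -0.92 to 0.09), and its adjusted p in edgeR was 0.766.

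Osmr and Lifr proteins both pair with gp130. Their levels per exon length were set against each other in each library, a ratio chosen after the values were seen and given without a test. Osmr per kb over Lifr per kb was 2.16, 2.79 and 2.24 in HFD libraries 1, 2 and 3, and 0.665, 1.24 and 1.73 in chow libraries 1, 2 and 3. The diets did not overlap in this ratio, which contains the Osmr difference already given. Chow library 1 was the sole library with more Lifr than Osmr per kb. With the longest transcript as the length, Osmr exceeded Lifr in all 6 libraries and the diets still did not overlap (4.27, 5.51 and 4.42 with HFD, 1.31, 2.46 and 3.43 with chow).

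For the kinase genes Jak1 (chr4:101151974-101265282) and Jak2 (chr19:29251803-29313095) the diets overlapped. Jak1, the kinase on which gp130 signalling chiefly depends, had 424, 441 and 355 CPM in HFD libraries 1, 2 and 3, and 344, 338 and 402 CPM in chow libraries 1, 2 and 3. The third library of each diet broke the order, so the groups overlapped. On the log2 scale Jak1 differed by 0.17 with an SE of 0.16 (adjusted p = 0.949 in edgeR), and the 95% interval of the fold ran from 0.881 to 1.44. The annotated span of Jak1 overlaps that of Raver2, and reads in the shared part are uncertain because the sources used here do not give the strand setting of the counting.

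Jak2, a second kinase of gp130 that also serves the growth hormone receptor, had 128, 104 and 141 CPM in HFD libraries 1, 2 and 3, and 156, 152 and 107 CPM in chow libraries 1, 2 and 3. The ranges overlapped over most of their width. On the log2 scale Jak2 differed by -0.16 with an SE of 0.22 (adjusted p = 0.989 in edgeR), with a 95% interval of the fold from 0.643 to 1.25.

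Stat3 (chr11:100886806-100939594), the transcription factor that gp130 activates, had 723, 886 and 775 CPM in HFD libraries 1, 2 and 3, and 976, 867 and 773 CPM in chow libraries 1, 2 and 3. HFD library 2 was above chow libraries 2 and 3, so no separation was seen. The means were 795 ± 83.5 CPM with HFD and 872 ± 102 CPM with chow (SD, n = 3 each). For Stat3 the log2 fold change was -0.13 (SE 0.15, adjusted p = 0.966 in edgeR), and the 95% interval of the fold, 0.727 to 1.14, leaves room for a decrease or a small increase. STAT3 activity depends on phosphorylation, which RNA counts do not measure.

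Of the feedback genes, Socs3 encodes the inhibitor that docks on gp130 itself and blocks the bound JAK kinase (chr11:117966079-117970336). Socs3 had 88.3, 93.8 and 169 CPM in HFD libraries 1, 2 and 3, against 265, 313 and 248 CPM in chow libraries 1, 2 and 3. Every HFD library lay below every chow library, and library 3 was the highest of the HFD libraries. The means were 117 ± 45.0 CPM with HFD and 275 ± 33.6 CPM with chow (SD, n = 3 each), 2.35-fold lower with HFD. The log2 fold change was -1.23 (SE 0.25, 95% interval -1.76 to -0.70), with an unadjusted p of 0.000209. By p, Socs3 ranked 42 of 13202 genes, just outside the called genes, and its adjusted p in edgeR was 0.0658. Socs3 passed in 7 of the 19 other settings. It passed with DESeq2 (adjusted p = 0.000547), limma-voom (0.00357), no filter on low counts (1.42e-05) and robust dispersions (0.0431). It did not pass with 3 other scalings, a filter of 1 CPM in at least 3 libraries or mitochondrial genes removed (edgeR adjusted p from 0.0639 to 0.0855). With the length trend removed it did not pass either (edgeR adjusted p = 0.125). Without HFD library 3 the log2 fold change was -1.59 and the adjusted p 0.00296. Without any other single library Socs3 did not pass, with log2 fold changes from -1.30 to -1.06 and adjusted p from 0.180 to 0.303. Leaving out both libraries that stood apart gave -1.13 (adjusted p = 0.424).

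Immediate early genes, which respond rapidly to stimuli and also to tissue dissociation, had a lower summed level with HFD. Their summed level over 20 genes was 9175, 6438 and 11158 CPM in HFD libraries 1, 2 and 3, and 18331, 19103 and 17982 CPM in the chow libraries. The list was chosen with earlier results of these data known, and its counts are a description. All 20 log2 fold changes were negative, beside 50.5% over all genes tested, and 16 had every HFD library below the chow libraries, beside 7.87%. Of the 20, 8 fell and 0 rose in edgeR, beside 22 of all genes tested that fell (0.167%). The called genes were Fos, Jun, Junb, Egr1, Atf3, Nr4a1, Btg2 and Zfp36, which encode transcription factors and, for Btg2 and Zfp36, an antiproliferative factor and an mRNA decay factor. Egr1 averaged 1888 ± 425 CPM with HFD and 4744 ± 670 CPM with chow, a log2 fold change of -1.33 with an SE of 0.17 and an adjusted p of 0.00474. Nr4a1 averaged 203 ± 52.7 CPM with HFD and 735 ± 127 CPM with chow, a log2 fold change of -1.85 with an SE of 0.21 and an adjusted p of 0.00297. Without a single library 3 to 9 of the 20 fell, fewest without chow library 3, with 4 without HFD library 2, 5 without chow library 1 and 4 without chow library 2. Without HFD library 1 and chow library 3 together 0 passed, and with the length trend removed 5. Socs3 is itself known to be induced quickly by stimuli other than gp130 ligands, and the part of this response in the Socs3 difference was not tested.

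Against Stat3, Socs3 per kb was 0.403, 0.349 and 0.718 of the Stat3 level in HFD libraries 1, 2 and 3, and 0.895, 1.19 and 1.06 of it in chow libraries 1, 2 and 3. This ratio was chosen after the values were seen and is given without a test. The diets did not overlap in it, and none of the HFD libraries reached the lowest chow library.

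Socs1 encodes an inhibitor that acts on JAK kinases directly and is best known for restraining interferon-gamma signals (chr16:10783808-10785536). Socs1 had 27.6, 12.5 and 39.2 CPM in HFD libraries 1, 2 and 3, and 19.1, 18.7 and 3.56 CPM in chow libraries 1, 2 and 3. Chow library 3 was far below the rest, and HFD library 2 lay below chow libraries 1 and 2. A log2 fold change of 0.94 had an SE of 0.65 (adjusted p = 0.876 in edgeR), and the 95% interval, -0.47 to 2.34, covers both directions. Its sign was thus opposite to that of Socs3, but the difference between the 2 genes was not tested.

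Socs2 (chr10:95383903-95417321) and Cish (chr9:107296659-107302784) are the feedback genes best known as targets of STAT5, downstream of growth hormone and other JAK2-coupled receptors. Socs2 had 62.8, 30.2 and 88.5 CPM in HFD libraries 1, 2 and 3, and 36.9, 60.9 and 64.8 CPM in chow libraries 1, 2 and 3. The HFD libraries spanned more than the whole chow range. The log2 fold change was 0.16 (SE 0.38, adjusted p = 0.999 in edgeR), and it turned to -0.22 without HFD library 3 and to -0.05 without chow library 1.

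Cish had 4.36, 2.75 and 8.25 CPM in HFD libraries 1, 2 and 3, and 2.39, 3.85 and 32.7 CPM in chow libraries 1, 2 and 3. Its chow mean came mostly from library 3, which held 570 reads, against 38 and 66 in chow libraries 1 and 2. The log2 fold change was -1.34 (SE 1.02, adjusted p = 0.900 in edgeR), and without chow library 3 it was 0.72 (SE 1.33, adjusted p = 0.999). No direction can therefore be given for Cish, nor for Il6ra, whose log2 fold change ran from -1.53 to 2.38 when 1 library was left out, the highest without the same library. Il6ra, which encodes the interleukin-6 binding chain, was highest in chow library 3, at 24.6 CPM, against 0.753 and 0.933 CPM in chow libraries 1 and 2 and 5.46, 6.72 and 1.02 CPM with HFD. Chow library 3 also had the highest summed level of the 9 leukocyte markers, 49.7 CPM. The other chow libraries were at 42.7 and 21.6 CPM, and the HFD libraries ran from 7.77 to 29.5 CPM. In chow library 3 most of the sum was Cd68 (31.0 CPM) and Lyz2 (17.5 CPM). Csf1r and Cd79a went the other way, at 0 and 0.804 CPM there against 7.72 and 5.02 CPM in chow library 1. Of the 9 leukocyte markers 4 were tested and 0 passed, and their part in the Cish and Il6ra values was not tested.

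**Figure D2:**
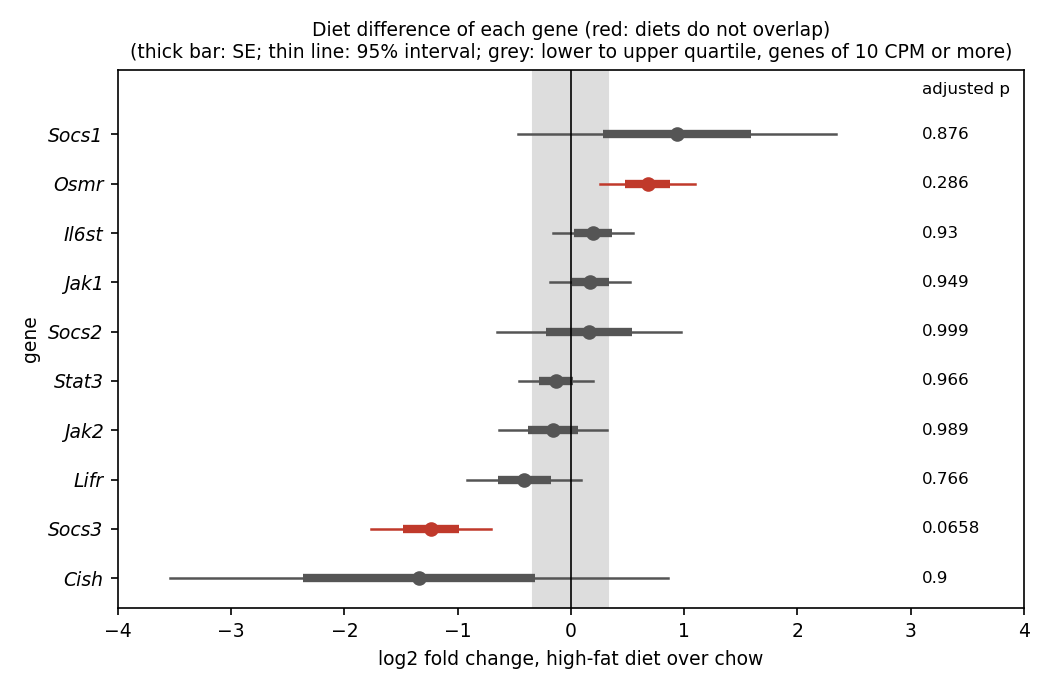
Log2 fold change of each gene, HFD over chow, as a point with its SE (thick bar) and 95% interval (thin line), with the edgeR adjusted p at the right. Grey marks the lower to the upper quartile of genes averaging 10 CPM or more (-0.34 to 0.33). Socs3, Osmr, Lifr, Socs1 and Cish lie outside it. The intervals of Socs3 and Osmr, in red because their diets do not overlap, exclude 0. The intervals of the other 8 genes include 0.

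The levels were next ordered per kb of annotated exon, since longer transcripts yield more reads. In chow libraries Socs3 (95.2 ± 11.6 CPM per kb) and Stat3 (91.5 ± 10.7) led, and their ranges overlapped. Jak1 (50.0 ± 4.83), Il6st (36.5 ± 4.64) and Jak2 (27.5 ± 5.49) followed, each separate from its neighbours over the 3 libraries. Osmr (14.8 ± 3.31) and Lifr (13.3 ± 3.68) overlapped with each other, and Socs2 (5.69 ± 1.59), Socs1 (4.74 ± 3.05) and Cish (2.02 ± 2.67) formed an overlapping group at the bottom (SD, n = 3).

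With HFD Stat3 stood alone at the top (83.4 ± 8.76 CPM per kb), followed by Jak1 (56.3 ± 6.27). Socs3 ranked 4 at 40.5 ± 15.6 CPM per kb, and its range took in Il6st (41.8 ± 4.45) and reached into that of Jak1. Jak2 (24.7 ± 3.69) and Osmr (23.8 ± 1.58) overlapped, and Osmr was clear of Lifr (9.99 ± 0.718). Socs1 (9.09 ± 4.61) and Socs2 (6.35 ± 3.07) overlapped with each other and with Lifr, and Cish (0.798 ± 0.441) was below both (SD, n = 3). The length used matters for the order: with the longest transcript of each gene, Stat3 (144 CPM per kb) was above Socs3 (108) in chow libraries, and Osmr (52.4) was above Socs3 (45.9) with HFD.

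**Figure D3:**
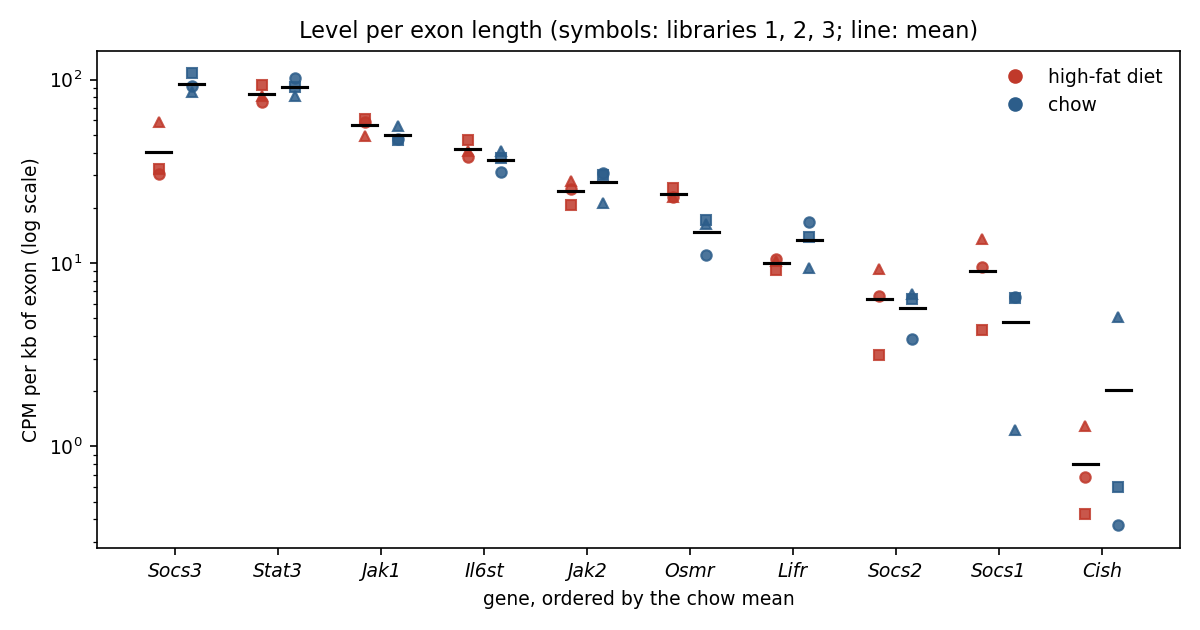
CPM per kb of exon in each library on a log scale, HFD in red at the left of each pair and chow in blue at the right, with genes ordered by the chow mean (horizontal lines are means). Socs3 shares the top of the chow order with Stat3 and lies at the height of Il6st with HFD. The mean of Cish is lowest in both diets, and its chow libraries overlap those of Socs1 and Socs2.

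Beside the 10 genes, 47 further genes of the pathway were examined, namely ligands, other receptor chains, other JAK, STAT and Socs genes and other inhibitors. Of these, 34 were tested, 0 passed in edgeR and 1, Stat2, had an unadjusted p under 0.05. Stat2, which mediates type I interferon signals, had 11.6, 59.2 and 76.6 CPM in HFD libraries 1, 2 and 3, against 130, 117 and 151 CPM in chow libraries 1, 2 and 3. The diets did not overlap, its span overlaps that of Apof, and its log2 fold change was -1.43 (SE 0.47, adjusted p = 0.371 in edgeR); it passed with limma-voom and with no filter on low counts.

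Among 11 ligand genes 5 were tested and 0 passed. Ctf1, which encodes cardiotrophin-1, averaged 0.868 CPM with HFD and 4.26 CPM with chow (adjusted p = 0.882 in edgeR). Lif and Osm were looked up as the ligands of Lifr and Osmr. Lif had 19.6, 14.1 and 21.7 CPM with HFD and 7.60, 13.8 and 11.9 CPM with chow, a log2 fold change of 0.73 with an SE of 0.58 and an adjusted p of 0.910. Osm was below the filter, with 10, 0 and 0 reads in HFD libraries 1, 2 and 3 and 11, 0 and 1 reads in chow libraries 1, 2 and 3, so a difference in it was not detectable at this depth.

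In the remaining lists no gene passed in edgeR. Il11ra1, the interleukin-11 binding chain, which has a near-identical mouse paralogue (Il11ra2) and overlaps Ccl27a, so that its reads are uncertain, averaged 22.4 ± 8.57 CPM with HFD and 32.5 ± 5.75 CPM with chow (adjusted p = 0.918). The kinase gene Tyk2 averaged 2.02 CPM with HFD and 7.78 CPM with chow (adjusted p = 0.872). Of the Socs genes outside the 10, Socs7 averaged 60.1 ± 15.2 CPM with HFD and 72.5 ± 6.34 CPM with chow, and Socs6 averaged 24.2 ± 8.59 CPM with HFD and 21.4 ± 15.0 CPM with chow (adjusted p = 0.958 for Socs7 and 1.00 for Socs6). The log2 fold change of Socs6 turned to -0.28 without chow library 3. Pias2, a SUMO ligase, averaged 230 CPM with HFD and 179 CPM with chow, and Pias4, another, averaged 13.3 CPM with HFD and 7.12 CPM with chow (adjusted p = 0.758 for Pias2 and 0.931 for Pias4). Among 12 genes of other JAK-coupled receptors 8 were tested, of which the interferon receptor gene Ifnar2 had 22.2 to 30.3 CPM with HFD and 26.2 to 61.2 CPM with chow (adjusted p = 0.837). The leptin receptor gene Lepr averaged 37.6 ± 9.01 CPM with HFD and 21.4 ± 16.9 CPM with chow (adjusted p = 0.869).

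Genes that STAT3 is known to activate were read as a list of 25, of which 22 were tested. In edgeR 2 fell and 0 rose, 9 had all HFD libraries below all chow libraries and 1 (Ccnd1) had them above, and the median log2 fold change was -0.18. Over all genes tested, 0.167% fell and 7.87% had every HFD library below the chow libraries. The list was chosen with earlier results of these data known, and its counts are a description. The AP-1 gene Junb fell to 590 ± 193 CPM with HFD, against 1273 ± 82.5 CPM with chow, a log2 fold change of -1.11 with an SE of 0.20 and an adjusted p of 0.0394. Cebpd, a transcription factor of the acute phase response whose span overlaps that of Spidr, fell to 226 ± 77.5 CPM with HFD, against 523 ± 35.0 CPM with chow, a log2 fold change of -1.21 with an SE of 0.22 and an adjusted p of 0.0373. Both calls were lost in edgeR without HFD library 1, HFD library 2 or any 1 chow library, with adjusted p up to 0.184 for Junb and 0.218 for Cebpd. With the length trend removed 0 of the list passed, and with total counts as the scaling 1 did (Cebpd). With DESeq2 5 of the list passed, with Cebpb, Fosl2 and Nfil3 added, and with limma-voom 4, beside 1.51% and 0.75% of all genes tested under these tools.

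Of the 22 tested targets 15 had a negative log2 fold change and 7 a positive one. Among those that did not pass, Pim1, Pim3, Myc, Cebpb, Fosl2, Nfil3 and Serpina3n had every HFD library below the chow libraries. Ccnd1 alone had every HFD library above them. The kinase gene Pim1 had 132, 171 and 219 CPM in HFD libraries 1, 2 and 3, and 270, 323 and 260 CPM in chow libraries 1, 2 and 3 (adjusted p = 0.286). The repressor gene Nfil3 averaged 119 ± 28.8 CPM with HFD and 250 ± 51.7 CPM with chow (adjusted p = 0.102). The survival gene Mcl1 averaged 797 ± 84.7 CPM with HFD and 768 ± 57.8 CPM with chow (adjusted p = 0.999). The cyclin gene Ccnd1, whose span overlaps that of Lto1, averaged 130 ± 44.6 CPM with HFD and 66.3 ± 21.6 CPM with chow (adjusted p = 0.322). With no filter on low counts Ccnd1 passed as higher with HFD. Junb and Myc also stand on the list of immediate early genes. Without them 20 targets were tested, of which 1 fell, 13 had a negative log2 fold change and 7 had every HFD library below the chow libraries. Over all genes tested these shares were 0.167%, 50.5% and 7.87%.

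**Figure D4:**
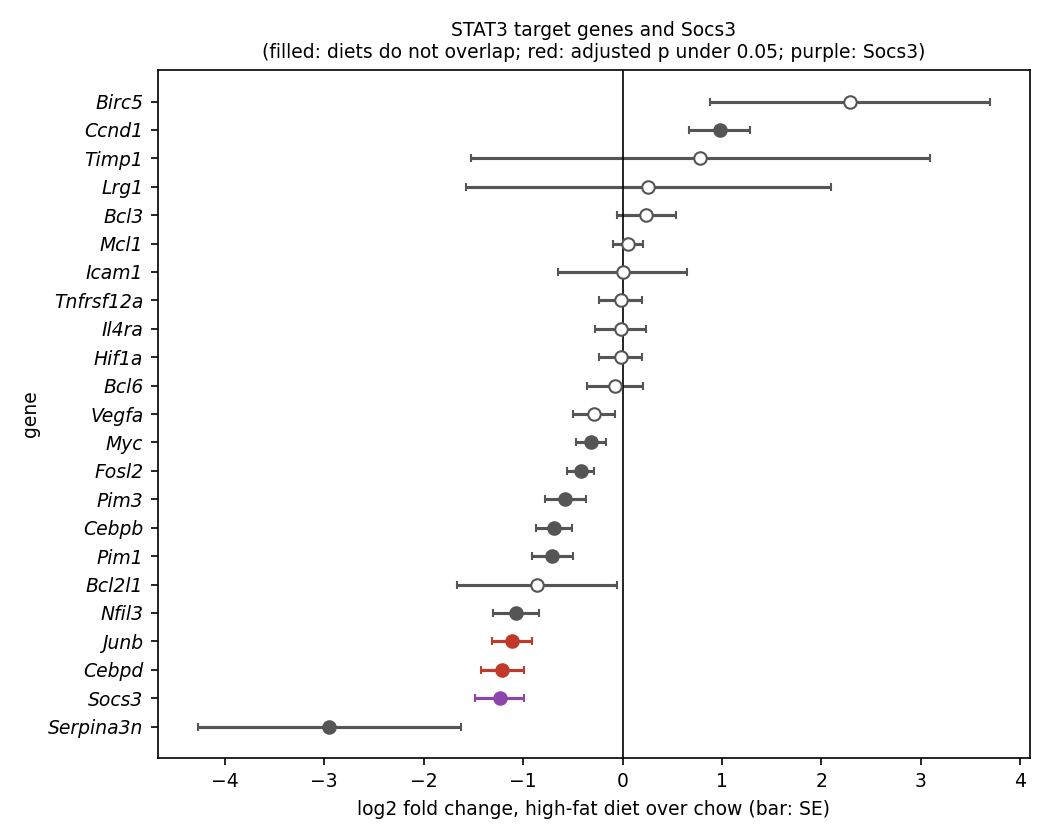
Log2 fold change (HFD over chow) with its SE for the 22 tested STAT3 target genes and Socs3, ordered by value. Filled points mark genes whose diets do not overlap; Junb and Cebpd, in red, are the 2 targets that passed in edgeR, at -1.11 and -1.21, and lie beside Socs3, in purple, at -1.23, while Mcl1, Hif1a and Bcl6 lie near 0.

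The genes whose pattern over the 6 libraries was most like that of Socs3 were sought among 7004 genes that averaged 10 CPM or more, by the root mean square difference of log2 CPM after centring each gene. Cebpd was closest (0.10), followed by the RNA helicase gene Dhx30 (0.12) and by Rnf213 (an interferon-inducible ubiquitin ligase), Mylk2 (a myosin light chain kinase) and Slc7a2 (a transporter of cationic amino acids), each at 0.14. The median over all 7004 genes was 0.85. Cebpd averaged 226 CPM with HFD and 523 CPM with chow, and Rnf213 averaged 228 CPM with HFD and 569 CPM with chow, both passing in edgeR (adjusted p = 0.0373 and 0.0143), whereas Dhx30, Mylk2 and Slc7a2 did not pass (adjusted p = 0.366, 0.439 and 0.350). Without 1 library Rnf213 passed in 2 of 6 fits, with adjusted p up to 0.114. The spans of Dhx30, Rnf213, Dis3 and Ewsr1 overlap other counted genes. For Stat3 the closest were Dis3 (0.04), Ewsr1 (0.05), Brd1 (0.06), Spred1 (0.08) and Snap23 (0.08), against a median of 0.46, and 0 of these 5 passed. Both sets were picked for likeness over the same 6 libraries. Their diet differences therefore follow from the choice, and whether they passed is no separate evidence.

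**Figure D5:**
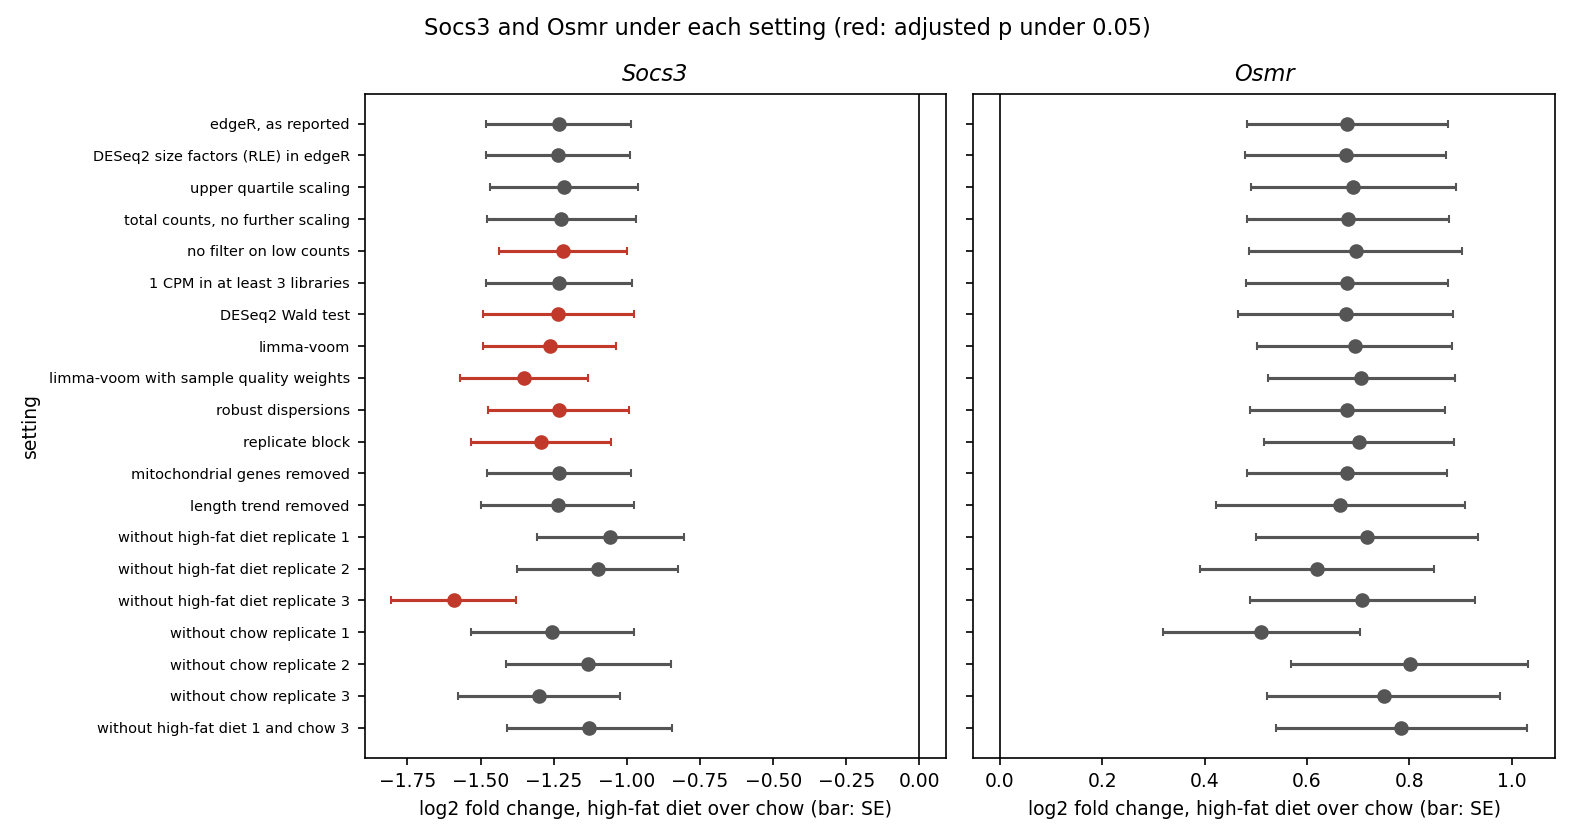
Log2 fold change (HFD over chow) with its SE for Socs3 and Osmr under the reported fit and 19 other settings, red where the adjusted p was under 0.05. Socs3 stays between -1.59 and -1.06 and passes in 7 of the 19, and Osmr stays between 0.51 and 0.80 and passes in none.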

How the data were processed

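The authors deposited whole-number counts of reads per Entrez gene ID, 1 file per library and not normalized. Per the file headers reads were aligned with Bowtie2, and the submitters' processing notes add featureCounts and the builds GRCm38 and mm10. The sources used here do not give versions, strand setting or the handling of multiply mapped reads. RNA had, per the labels' protocols, an integrity number of 8.5 to 9.4, ribosomal RNA was depleted and 75-bp single reads were sequenced.

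Symbols came from RefSeq GRCm38.p6 (25275 IDs) and GENCODE M21 (17 more), exon lengths from GENCODE M21 and promoter sequences from RefSeq. Counts were fitted in R 4.3.3 with edgeR 4.0.16: filterByExpr (minimum count 10), TMM, quasi-likelihood F test (two-sided) with diet as the only factor, Benjamini-Hochberg over 13202 genes, threshold 0.05. An SE is the absolute log2 fold change over the square root of F, and a 95% interval uses the test's degrees of freedom. The CPM given for 3 counts covers counting error only. The fit was tested on simulated data.

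Other settings were 3 scalings, 2 filters, DESeq2 1.42.0, limma-voom (limma 3.58.1) with and without quality weights, robust dispersions, a replicate block, mitochondrial genes removed, removal of a length trend (span 0.3; 89.9% of genes tested had a length), an adjusted p of 0.1, and leaving out libraries. Every pair of libraries differed by more than sampling noise. The genes and lists were chosen with earlier results of these data known. Named were all 10 genes, list genes that passed or else up to 2 with the smallest p, and the 5 genes most like Socs3 and Stat3. Of these, 1 gene is not reported here. Lif, Osm, Pim1, Nfil3, Mcl1, Ccnd1 and single markers were named after their values were seen.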

Additional observations from a re-analysis of the deposited data

How the results depend on the processing

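The number of genes that passed was 34 and stayed within 1.5 times that count under the 3 other scalings, the stricter filter, robust dispersions, removal of mitochondrial genes and an adjusted p of 0.1. It was 163 with no filter, 198 with DESeq2, 99 with limma-voom, 112 with quality weights added, 17 with the length trend removed and 1 without HFD library 1 and chow library 3 together; leaving out 1 library in turn gave 9 to 44. Of the 10 signalling genes 1 passed (Socs3) with no filter, DESeq2, limma-voom with or without quality weights, robust dispersions, the replicate block, an adjusted p of 0.1 and without HFD library 3, and 0 to 1 passed when 1 library was left out. No pairing by replicate number showed in the correlation of libraries' deviations from their group means. It was 0.02, 0.03 and -0.03 for same-numbered libraries and -0.06 to 0.03 for the other pairs across diets. This measure cannot exclude that same-numbered libraries were handled together. With the replicate block 45 genes passed, and Socs3 was at -1.29 (adjusted p = 0.0374).

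STAT3 targets that passed numbered 2, against 5 with no filter, with DESeq2 and with quality weights, 4 with limma-voom, 1 with total counts, 0 with the length trend removed and without HFD library 1 and chow library 3 together, and 0 to 2 with 1 library left out. Among those with no filter was Ccnd1, which was higher with HFD (log2 fold change 0.99, adjusted p = 0.0261 in edgeR). For immediate early genes 8 became 5 with the length trend removed, 0 without both of those libraries and 3 to 9 with 1 library left out. Of other JAK and STAT genes, 1 (Stat2) passed with no filter and with limma-voom. With the longest transcript as length, CPM per kb with HFD and with chow was 53.5 and 46.7 for Il6st, 52.4 and 32.8 for Osmr, 82.9 and 73.7 for Jak1, 132 and 144 for Stat3, and 14.3 and 12.8 for Socs2; it was 11.1 for Lifr with HFD and 108 for Socs3 with chow.

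Log2 fold changes that changed sign were, for Socs2, -0.14 with quality weights and -0.22 to 0.48 with 1 library left out, and for Cish -1.87 to 0.72 with 1 library left out and 0.83 without both libraries. Il6ra was at 0.19 with limma-voom, 1.08 with quality weights, 1.26 with the replicate block, 2.20 without both libraries and -1.53 to 2.38 with 1 left out. Socs6 was at -0.41 without both libraries and -0.28 to 0.75 with 1 left out, and Ewsr1 at 0.0018 with the length trend removed. With 1 library left out Ewsr1 ran from -0.14 to 0.026, Spred1 from -0.16 to 0.047 and Mcl1 from -0.0036 to 0.13. The cause was not tested. The other 8 signalling genes kept their sign in all 19 settings.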
